A study of Felis catus with 6 samples.

Results

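This report covers 9 genes of the T cell receptor (TCR) complex and its first signaling steps in feline chronic gingivostomatitis (FCGS), an immune-mediated inflammation of the oral mucosa of cats. They are CD3G, CD3D, CD3E, CD4, LCP2, TEC, PRKCQ, RASGRP1 and NFATC1, 9 of the 21529 Ensembl gene identifiers measured. The genes were chosen by symbol, and the identifier of each was found by matching its tissue values in the supplementary gene table, raised to at least 1 FPKM, to the deposited values; each of the 9 matched 1 identifier. RNA was sequenced from 6 biopsies of 3 cats, called Bart, Jerome and Sadie in the labels. From each cat there was 1 biopsy of an inflamed FCGS lesion and 1 of adjacent, grossly healthy oral mucosa. Both groups therefore come from cats with FCGS, and these 6 libraries hold no cat free of the disease. According to the study, its FCGS cats had no teeth left, received buprenorphine for pain, and were given neither immunosuppressive drugs nor antibiotics at the time of collection. The labels give neither sex nor age. They call the tissue gingival, while the series design places the biopsies lateral to the palatoglossal folds.

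T cells recognise peptides on MHC molecules through the TCR, whose own chains have almost no intracellular part. The CD3 chains carry the signal: their cytoplasmic tyrosine motifs are phosphorylated by LCK, which the co-receptors CD4 and CD8 bring to the complex. ZAP70 binds the phosphorylated motifs and phosphorylates the adaptors LAT and LCP2 (SLP-76), around which TEC family kinases activate phospholipase C gamma. Its products open the diacylglycerol branch, through PRKCQ (protein kinase C theta) and the Ras activator RASGRP1, and the calcium branch, in which calcineurin sends NFAT proteins such as NFATC1 into the nucleus. Most of these roles were worked out in mice and human cells. In bulk tissue, a difference in the number of T cells and a difference in RNA per T cell cannot be told apart.

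Levels are given as FPKM, fragments per kilobase of transcript scaled to library size, so that they can be set side by side between genes of different length. For tests, a floor of 1 FPKM was set under all values before the log2, which understates changes of weakly expressed genes. The test was limma with tissue as the only term across 13327 identifiers, those that reached 1 FPKM in 3 or more of the 6 libraries, with Benjamini-Hochberg adjustment, and a gene passed at an adjusted p under 0.05. All 9 genes were among those tested, and all p-values rest on 3 cats. The same fit with the cat as a block compares the 2 biopsies of each animal and is given where it changes a call. The gene table that supplied the symbols lists genes at least 2-fold different between these same tissues, so all 9 genes had to differ at least 2-fold and the size of the mean difference is not independent evidence. The copy read here held 1981 rows, fewer than the number of such genes reported by the study. It named 1929 identifiers, 1292 of them higher and 637 lower in lesions. None of these fell beyond a log2 difference of -2.38, so any gene that fell more steeply had no symbol here.

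FPKM summed to 1382122 to 1767520 in lesions and 1429495 to 1903773 in healthy mucosa. The files do not state read numbers. As estimated from steps in values under 0.1 FPKM, the value of 1 read differed by up to 1.77-fold between libraries, being largest in the lesion of Sadie and smallest in healthy mucosa of Bart. The 10 T cell markers with a symbol (CD2, CD6, LCK and others) were above 0 in every library. Of the epithelial keratins, KRT4 was listed at 0 in healthy mucosa of Jerome and Sadie.

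CD3G, CD3D and CD3E, the CD3 gamma, delta and epsilon chains, were each higher in the lesion than in the healthy mucosa of every cat. CD3G measured 56.9, 105 and 222 FPKM in the lesions of Bart, Jerome and Sadie, against 12.04, 35.6 and 24.2 FPKM in their healthy mucosa. The lesions lay above all healthy biopsies, and the lesion of Sadie stood far above the other lesions. The log2 difference of CD3G was 2.33 (standard error 0.61, 95% interval 0.86 to 3.81), which did not pass limma with tissue only (adjusted p = 0.058) and passed with the cat as a block (adjusted p = 0.025).
CD3D measured 48.3, 73.6 and 126 FPKM in the lesions of Bart, Jerome and Sadie, against 10.4, 29.5 and 26.3 FPKM in their healthy mucosa. Again no lesion fell within the range of healthy mucosa. The log2 difference of CD3D was 1.93 (standard error 0.52, 95% interval 0.66 to 3.21), with an adjusted p of 0.064 from limma with tissue only and 0.023 with the block.
CD3E measured 38.3, 90.9 and 110.5 FPKM in the lesions of Bart, Jerome and Sadie, against 15.2, 30.7 and 39.2 FPKM in their healthy mucosa. Here the groups overlapped, because the lesion of Bart lay just below the healthy mucosa of Sadie. Within cats CD3E was the steadier chain, with log2 differences of 1.33 (Bart), 1.57 (Jerome) and 1.496 (Sadie), whereas those of CD3G spanned 1.56 (Jerome) to 3.20 (Sadie). Its mean log2 difference of 1.46 (standard error 0.52, 95% interval 0.19 to 2.74) had an adjusted p of 0.12 from limma with tissue only and 0.022 with the block.
The 3 genes are neighbours in the cat genome: in the RefSeq annotation of F.catus_Fca126_mat1.0, CD3D lies between CD3E and CD3G on chromosome D1. Their proportions were not the same in both tissues. The FPKM ratio of CD3G to CD3E was 1.48, 1.15 and 2.01 in the lesions of Bart, Jerome and Sadie, against 0.79, 1.16 and 0.617 in their healthy mucosa. It was thus higher in the lesion by 1.88-fold in Bart and 3.26-fold in Sadie, whereas in Jerome it was 0.994-fold. The ratio of CD3D to CD3E moved likewise, by 1.84-fold in Bart, 0.842-fold in Jerome and 1.703-fold in Sadie. No test was run on these ratios.

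**Figure D1:**
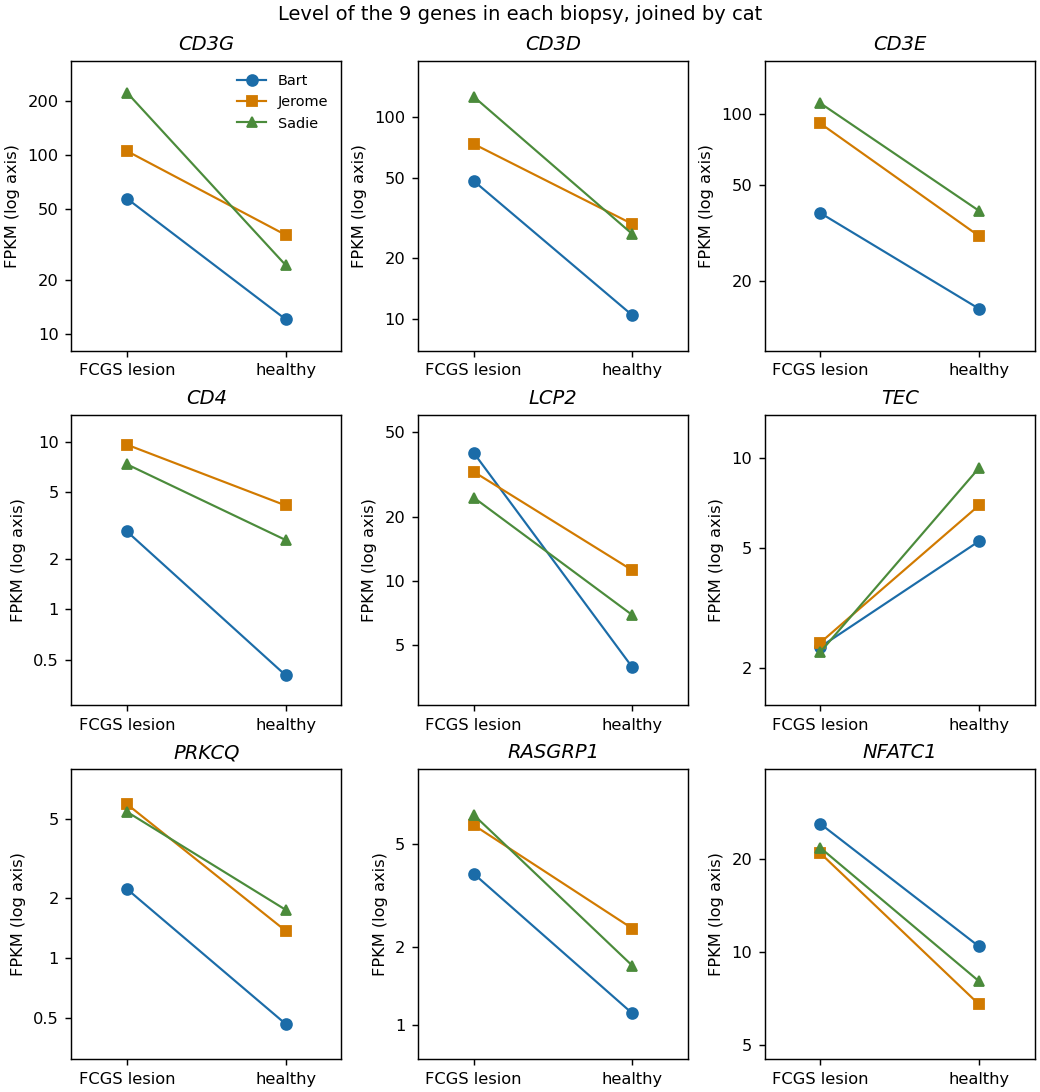
FPKM (vertical log axes, scaled per gene) of the 9 genes in FCGS lesions (left) and healthy mucosa (right), with 1 line per cat. Of the 9 genes, 8 go down from lesion to healthy mucosa in every cat and TEC goes up in every cat; Bart has the lowest CD3G, CD3D, CD3E, CD4, PRKCQ and RASGRP1 in both tissues and the highest NFATC1.

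CD4, the co-receptor for MHC class II that marks helper T cells and is also found on some myeloid cells in other species, was a low-level transcript. It measured 2.91, 9.58 and 7.32 FPKM in the lesions of Bart, Jerome and Sadie, against 0.404, 4.16 and 2.59 FPKM in their healthy mucosa. The groups overlapped, since the lesion of Bart held less CD4 than the healthy mucosa of Jerome. The log2 difference was 1.41 (standard error 0.68, 95% interval -0.23 to 3.06) and did not pass limma with tissue only (adjusted p = 0.21), but passed with the cat as a block (adjusted p = 0.024). The value in healthy mucosa of Bart is below 1 FPKM and was raised to 1 for the test. With 0.1 FPKM added to every value in place of that floor, the log2 difference was 1.74, and with the block it still passed (adjusted p = 0.045).
Relative to CD8A, the co-receptor chain of cytotoxic T cells, the FPKM ratio of CD4 was 0.132, 0.0928 and 0.0822 in the lesions of Bart, Jerome and Sadie, against 0.0439, 0.157 and 0.0697 in their healthy mucosa. The lesion ratio was 3.01 times the healthy one in Bart, 0.59 times in Jerome and 1.18 times in Sadie. In Bart it rests on the CD4 value below 1 FPKM in healthy mucosa, which was not raised here.

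LCP2 encodes SLP-76, the adaptor that joins phosphorylated LAT to phospholipase C gamma and VAV1; it also serves receptors of myeloid cells, mast cells and platelets. LCP2 measured 39.9, 32.5 and 24.6 FPKM in the lesions of Bart, Jerome and Sadie, against 3.94, 11.2 and 6.91 FPKM in their healthy mucosa. The lesions lay above all healthy biopsies. LCP2 rose in limma (adjusted p = 0.030), with a log2 difference of 2.24 and a standard error of 0.43. The rise was steepest in Bart, at 10.1-fold, against 2.90-fold in Jerome and 3.56-fold in Sadie.
Among lesions LCP2 ran opposite to the CD3 chains: it was highest in Bart, where CD3 was lowest, and lowest in Sadie, where CD3 was highest. Divided by the geometric mean of the 3 CD3 chains in the same library, LCP2 was at 0.844, 0.365 and 0.169 in the lesions of Bart, Jerome and Sadie, against 0.317, 0.352 and 0.237 in their healthy mucosa. The lesion ratio was 2.66 times the healthy one in Bart, 1.04 times in Jerome and 0.712 times in Sadie.
Of 17 myeloid markers, 12 had a symbol, 8 of them rose and none fell, and in all 12 the lesions lay above all healthy biopsies. Among all identifiers with a symbol, 21.1% were called higher, and for 45.5% the lesions lay wholly above. The 12 summed to 1943, 2439 and 2189 FPKM in the lesions of Bart, Jerome and Sadie. In their healthy mucosa the sums were 327, 815 and 540 FPKM, and none of the 12 was at 0. TYROBP, an adaptor of myeloid and NK cell receptors, measured 602, 516 and 351 FPKM in the lesions of Bart, Jerome and Sadie, against 59.7, 195 and 121 FPKM in their healthy mucosa. The 6 libraries stand in the same order for TYROBP as for LCP2. The complement chains C1QB and C1QC, of the same list, ran the other way among lesions. In the lesions of Bart, Jerome and Sadie C1QB measured 350, 596 and 673 FPKM, and C1QC 272, 595 and 647 FPKM. Their levels, like the summed level, were lowest in the lesion of Bart, where LCP2 was highest. The part of myeloid cells in the LCP2 difference was not tested.

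TEC, a tyrosine kinase of the family that includes BTK, was the only one of the 9 genes that fell. It measured 2.34, 2.42 and 2.25 FPKM in the lesions of Bart, Jerome and Sadie, against 5.28, 6.95 and 9.26 FPKM in their healthy mucosa. The groups were well apart, and the lesions were nearly equal to each other. TEC fell in limma (adjusted p = 0.028), with a log2 difference of -1.58 and a standard error of 0.29. The fall was least in Bart (log2 difference -1.17) and greatest in Sadie (log2 difference -2.04).
Per CD3 mean, TEC was at 0.0496, 0.0273 and 0.0155 in the lesions of Bart, Jerome and Sadie, against 0.426, 0.218 and 0.317 in their healthy mucosa. BTK, the family member of B cells and myeloid cells, moved the other way, with 6.06, 11.1 and 11.7 FPKM in the lesions of Bart, Jerome and Sadie, against 0.692, 3.37 and 1.52 FPKM in their healthy mucosa (log2 difference 2.42, adjusted p = 0.039 from limma).
Of 22 epithelial markers, 7 had a symbol, 3 of them fell and none rose. A marker that fell beyond a log2 difference of -2.38 had no symbol here, so the counts and sums of this list leave out any such marker. The difference was negative for 6 of the 7, and for 5 the lesions lay below all healthy biopsies. Among all identifiers with a symbol, 14.3% were called lower, and for 25.8% the lesions lay wholly below. COL17A1, the basal cell collagen of hemidesmosomes, measured 51.4, 114 and 42.7 FPKM in the lesions of Bart, Jerome and Sadie, against 504, 222 and 240 FPKM in their healthy mucosa (adjusted p = 0.038 from limma). The summed level of the list was 74.7, 2693 and 634 FPKM in these lesions against 2671, 279 and 293 FPKM in healthy mucosa, of which KRT4 made up 2534 FPKM in the lesion of Jerome and 2089 FPKM in healthy mucosa of Bart. Without KRT4, left out after its values were seen, the sum was 65.7, 159.7 and 64.8 FPKM in the lesions of Bart, Jerome and Sadie. In their healthy mucosa it was 582, 279 and 293 FPKM. This sum, most of it COL17A1 in every library, was lower in the lesion of every cat, as TEC was. It fell most in Bart, where TEC fell least. LAMB3, also in the list, was lower in the lesions of Bart and Sadie but higher in that of Jerome (35.6 against 23.7 FPKM). The part of epithelium in the TEC difference was not tested.

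PRKCQ encodes protein kinase C theta, which links the TCR to NF-kappa B and is also abundant in skeletal muscle. PRKCQ measured 2.22, 5.94 and 5.43 FPKM in the lesions of Bart, Jerome and Sadie, against 0.464, 1.37 and 1.74 FPKM in their healthy mucosa. The lesions lay above all healthy biopsies, but the lesion of Bart exceeded healthy mucosa of Sadie by little. The log2 difference was 1.64 (standard error 0.46, 95% interval 0.51 to 2.76), which did not pass limma with tissue only (adjusted p = 0.069) and passed with the cat as a block (adjusted p = 0.029).
Skeletal muscle genes differed widely between biopsies. Of 25 muscle markers, 20 had a symbol, limma called 0 of them in either direction, and none was at 0. Of the 20, 1 had an unadjusted p under 0.05, and 1 passed with the block. Their summed level was 37.8, 5355 and 4678 FPKM in the lesions of Bart, Jerome and Sadie, against 10.3, 28.4 and 2343 FPKM in their healthy mucosa. PRKCQ was highest in the 2 lesions with the most muscle RNA. In Jerome, whose lesion held far more of it than the healthy mucosa, the log2 difference of PRKCQ with the floor was largest, at 2.12. In Bart, whose biopsies held little of it, that difference was 1.15 with the floor under its healthy value. In Sadie, whose biopsies both held much, it was 1.64. Without the floor the order changed. The lesion then held 4.785 times the PRKCQ of healthy mucosa in Bart, 4.345 times in Jerome and 3.12 times in Sadie. The muscle sum was higher in the lesion of every cat. The part of muscle in the PRKCQ difference was not tested.

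**Figure D2:**
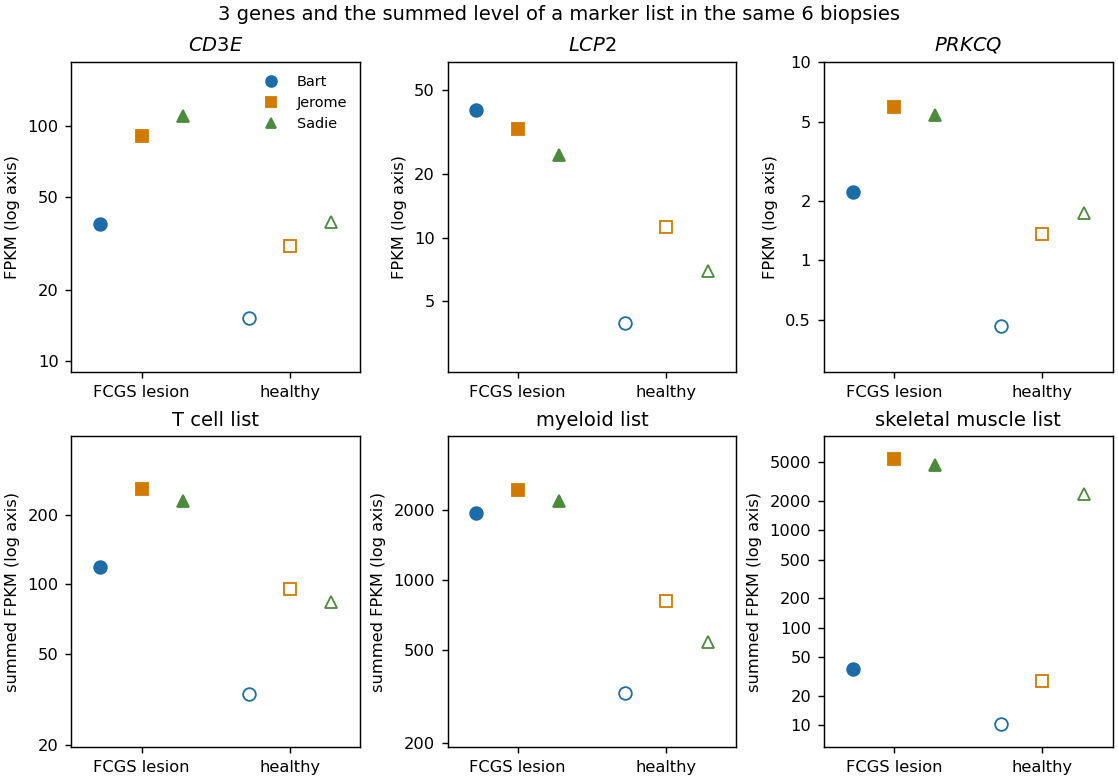
FPKM of CD3E, LCP2 and PRKCQ (top) above the summed FPKM of a marker list (bottom: T cell, myeloid and skeletal muscle genes) in the same 6 biopsies, on log axes; filled symbols are FCGS lesions and open symbols healthy mucosa. The muscle sum is at or above 2343 in 3 biopsies and at or below 37.8 in the other 3, and the PRKCQ of the lesion of Bart lies above that of the healthy mucosa of Sadie.

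RASGRP1, the diacylglycerol-activated exchange factor that switches on Ras in T cells, measured 3.84, 5.92 and 6.49 FPKM in the lesions of Bart, Jerome and Sadie, against 1.10, 2.35 and 1.69 FPKM in their healthy mucosa. The groups did not overlap. RASGRP1 rose in limma (adjusted p = 0.042), with a log2 difference of 1.69 and a standard error of 0.38. The call ended with 0.1 FPKM added to every value or after quantile normalization (adjusted p = 0.051 in both). Of the 6 genes outside the CD3 complex, RASGRP1 had the change in proportion to it that varied by the smallest factor over the 3 cats. Its ratio to the CD3 mean was 0.0813, 0.0666 and 0.0445 in the lesions of Bart, Jerome and Sadie, against 0.0891, 0.0739 and 0.0579 in their healthy mucosa. The ratio in the lesion was 0.912, 0.901 and 0.768 times that in healthy mucosa of the same cats. For PRKCQ the corresponding figures were 1.26, 1.56 and 0.624.

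NFATC1, the calcineurin-dependent transcription factor of lymphocytes that also acts in osteoclasts and endothelium, measured 26.0, 20.9 and 21.7 FPKM in the lesions of Bart, Jerome and Sadie, against 10.4, 6.78 and 8.05 FPKM in their healthy mucosa. The groups were well apart and each was narrow. NFATC1 rose in limma (adjusted p = 0.025), with a log2 difference of 1.46 and a standard error of 0.24, and the 3 cats gave similar differences of 1.32 (Bart), 1.62 (Jerome) and 1.43 (Sadie). Unlike CD3, NFATC1 was highest in Bart in both tissues. Its ratio to the CD3 mean was 0.55, 0.235 and 0.149 in the lesions of Bart, Jerome and Sadie, against 0.841, 0.213 and 0.276 in their healthy mucosa, so that it was higher in the lesion of Jerome and lower in the lesions of Bart and Sadie.
Endothelial genes were highest in Bart as well. Of 13 endothelial markers, 11 had a symbol, 3 of them rose and none fell, and none was at 0. With the cat as a block all 11 rose. Among all identifiers with a symbol, 21.1% were called higher with tissue only and 46.1% with the block. The 11 summed to 2443, 1026 and 913 FPKM in the lesions of Bart, Jerome and Sadie. In their healthy mucosa the sums were 533, 273 and 215 FPKM. The part of endothelium in the NFATC1 difference was not tested.

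**Figure D3:**
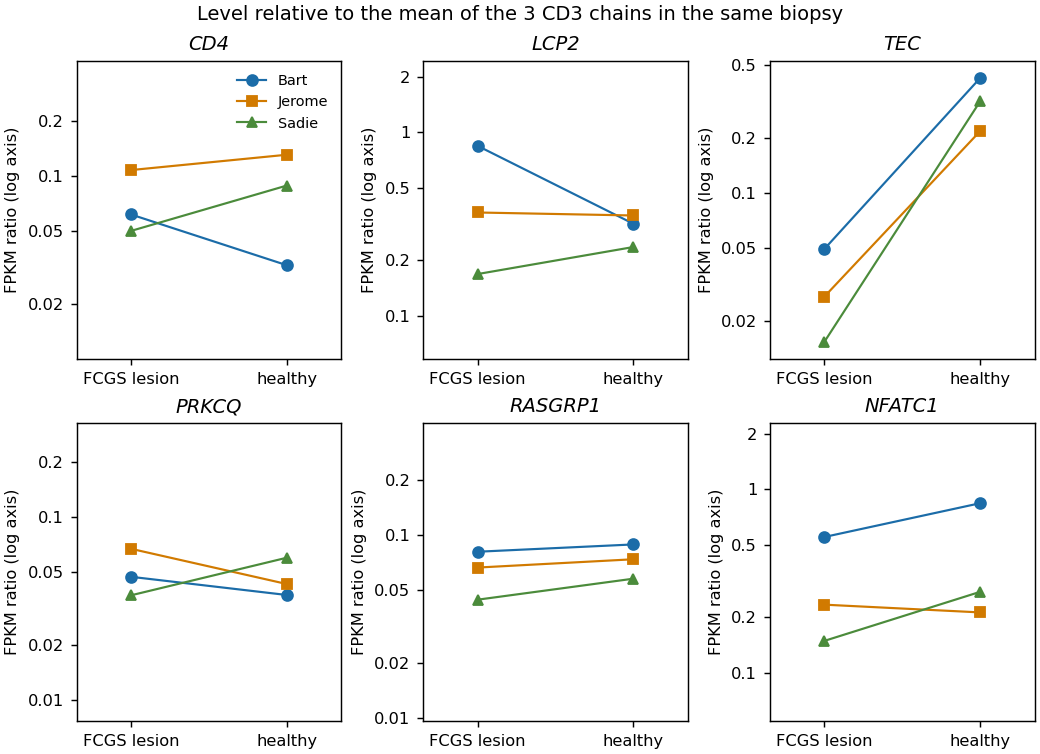
FPKM of the 6 genes outside the CD3 complex divided by the geometric mean FPKM of CD3D, CD3E and CD3G in the same biopsy (vertical log axes of equal span), in FCGS lesions (left) and healthy mucosa (right), with 1 line per cat. TEC is lower relative to CD3 in every lesion, RASGRP1 stays within 0.768 to 0.912 times, and LCP2 and CD4 are higher relative to CD3 in the lesion of Bart but not in that of Sadie.

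Of the 9 genes, 3 rose (LCP2, RASGRP1 and NFATC1) and 1 fell (TEC) past limma with tissue only. In that fit 5.31% of all tested identifiers were called higher and 6.61% lower, and among the 1929 with a symbol 21.1% were called higher and 14.3% lower. With the cat as a block, 8 rose and 1 fell, against 12.2% called higher and 11.1% lower over all tested identifiers and 46.1% and 22.0% among those with a symbol. The lesions lay above all healthy biopsies for 6 genes and below them for 1, whereas CD3E and CD4 overlapped; over all tested identifiers 16.7% were wholly above and 21.9% wholly below, and among those with a symbol 45.5% and 25.8%. All 8 genes with a positive difference were higher in every cat, which held for 28.6% of all tested identifiers and 60.2% of those with a symbol, and TEC was lower in every cat, which held for 34.6% and 30.5%. An unadjusted p under 0.05 was reached by 8 of the 9 genes, by 31.6% of all tested identifiers and by 73.7% of those with a symbol. The median log2 difference of the 9 genes was 1.64, beside -0.07 over all tested identifiers and 1.26 over those with a symbol. Since a symbol required a 2-fold difference, the values for identifiers with a symbol are the nearer background. They leave out any identifier that fell beyond a log2 difference of -2.38, which affects the shares called lower, the shares called higher and the median.
The 5 genes that passed only with the block had the 5 largest standard errors of the 9 with tissue only. CD3G, CD3D, CD3E, CD4, PRKCQ and RASGRP1 were all lowest in Bart, in lesions and in healthy mucosa. The levels of CD3E and CD4 in the lesion of Bart fell within the healthy range.
The calls of the fit with tissue only changed when libraries were left out. Without Bart, 7 genes rose and 1 fell while 16.0% of all tested identifiers were called in either direction, and CD4 did not pass (adjusted p = 0.071). Without the lesion of Bart alone, CD3G, PRKCQ, RASGRP1 and NFATC1 rose and TEC fell, and LCP2 no longer passed (adjusted p = 0.058). Without healthy mucosa of Bart, RASGRP1 no longer passed (adjusted p = 0.077). Leaving out the lesion of Jerome, the lesion of Sadie, healthy mucosa of Jerome, healthy mucosa of Sadie, all of Jerome or all of Sadie, limma called 0 of the 9, while 6 to 8 of them had an unadjusted p under 0.05. In those 6 fits the lowest adjusted p of the 9 was 0.052, for LCP2 without healthy mucosa of Jerome. With all of Jerome or all of Sadie left out, limma called 0 of all 13327 identifiers, so that those fits say nothing particular to these genes. For fits without a single biopsy, the share of all tested identifiers called was not computed. Of the 47 other pathway genes described below, 20 rose with all libraries. Without the lesion of Jerome or of Sadie, 3 and 0 of them rose. Without healthy mucosa of Jerome or of Sadie, 4 and 0 rose. Without the filter on low values limma called 2.84% of 18541 identifiers in either direction, and of the 9 genes NFATC1 still passed (adjusted p = 0.048), whereas TEC (adjusted p = 0.059), LCP2 (adjusted p = 0.073) and RASGRP1 (adjusted p = 0.087) did not. After rescaling to TPM, CD3G and CD3D also rose (adjusted p = 0.034 for each). In that fit 22 of the other pathway genes rose, and the share of all identifiers called was not computed.

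**Figure D4:**
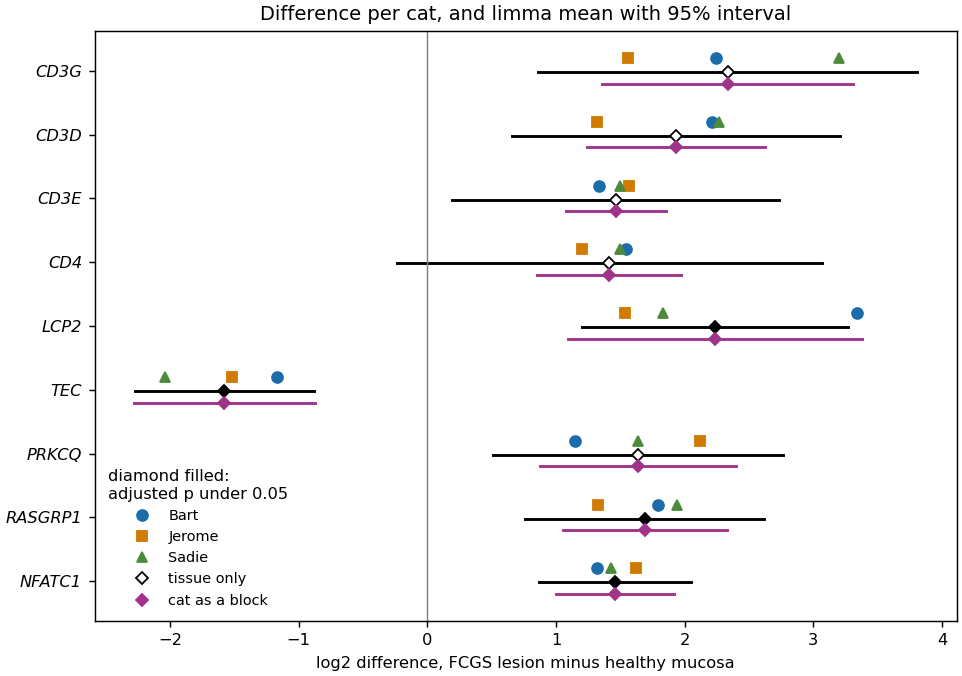
Log2 difference between FCGS lesion and healthy mucosa (horizontal axis) of the 9 genes (rows), where coloured symbols are the 3 cats, and diamonds the limma mean with its 95% interval, in black with tissue only and in purple with the cat as a block, filled where the adjusted p is under 0.05. The intervals of CD3E and CD4 narrow most with the block, and with tissue only that of CD4 spans 0.

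**Figure D5:**
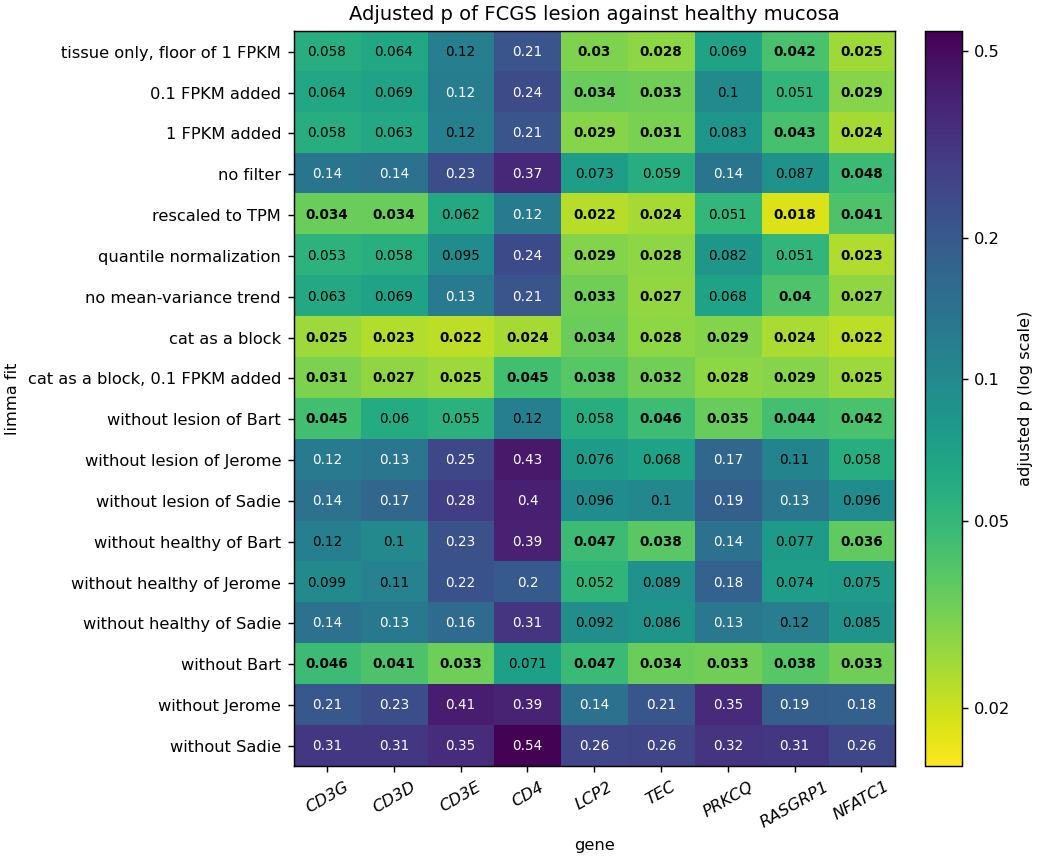
Adjusted p from limma (number and colour, log scale) of the 9 genes (columns) in each fit (rows), bold where under 0.05. NFATC1, TEC and LCP2 have bold values in the most fits and CD4 in 2, and the 6 fits that leave out Jerome, Sadie or 1 of their biopsies have none.

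Per length, the CD3 chains had the highest mean FPKM of the 9 genes in both tissues. In lesions the order of mean levels was CD3G (128 ± 85.1 FPKM), CD3D (82.8 ± 39.9), CD3E (79.9 ± 37.3), LCP2 (32.3 ± 7.64), NFATC1 (22.9 ± 2.73), CD4 (6.604 ± 3.39), RASGRP1 (5.41 ± 1.395), PRKCQ (4.53 ± 2.02) and TEC (2.34 ± 0.0848; SD, n = 3 cats throughout). The ranges of the 3 CD3 chains overlapped, as did those of LCP2 and NFATC1, and those of CD4, RASGRP1 and PRKCQ. Within each lesion, CD3G lay above CD3D and CD3E, and LCP2 above NFATC1. No test was run between genes. TEC lay below CD4 and RASGRP1 in every lesion, its range overlapped that of PRKCQ, and in Bart LCP2 lay above CD3E. In healthy mucosa the order was CD3E (28.4 ± 12.1 FPKM), CD3G (23.9 ± 11.8), CD3D (22.1 ± 10.2), NFATC1 (8.42 ± 1.85), LCP2 (7.35 ± 3.66), TEC (7.17 ± 2.0), CD4 (2.39 ± 1.89), RASGRP1 (1.72 ± 0.625) and PRKCQ (1.19 ± 0.658; SD, n = 3). The ranges of the 3 CD3 chains overlapped there, as did those of NFATC1, LCP2 and TEC, and those of CD4, RASGRP1 and PRKCQ. Within each healthy biopsy, CD3E lay above CD3D. TEC held place 8 or 9 in each lesion, and place 4 or 5 in each healthy library.

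Other genes of the pathway were taken from 5 lists that together hold 115 genes and none of the 9. Of these, 47 had a symbol, 20 rose, 3 fell and 24 passed in neither direction (38 rose and 5 fell with the cat as a block, adjusted p under 0.05 in limma). Their median log2 difference was 1.597. Among all identifiers with a symbol, 21.1% were called higher and 14.3% lower, or 46.1% and 22.0% with the block, and the median was 1.26. These shares are the background for the counts of the single lists below as well. Any listed gene that fell beyond a log2 difference of -2.38 had no symbol and is missing from the counts.
Among 13 receptor chains and co-receptors, 8 had a symbol and 3 rose: CD28, the costimulatory receptor (log2 difference 2.20, adjusted p = 0.028 from limma), PTPRC, the phosphatase CD45 that keeps LCK active (2.05, adjusted p = 0.028), and SLAMF6, a receptor of T, B and NK cells (2.73, adjusted p = 0.035). CD5, an inhibitory receptor of T cells and some B cells, had a log2 difference of 1.45 (adjusted p = 0.073, and 0.022 with the block). CD6, its relative, had one of 1.28 (adjusted p = 0.16, and 0.024 with the block).
Among 17 tyrosine kinases and phosphatases, 8 had a symbol, 4 rose and none fell. PTPN22, a phosphatase that dampens LCK and ZAP70, rose by 1.68 (adjusted p = 0.021 from limma), and INPP5D, PTPN6 and BTK also rose. LCK, which phosphorylates the CD3 chains, measured 9.88, 29.5 and 32.9 FPKM in the lesions of Bart, Jerome and Sadie, against 3.00, 10.5 and 13.3 FPKM in their healthy mucosa. ZAP70, which docks on them, measured 10.6, 28.5 and 25.1 FPKM in the lesions of the same cats, against 4.19, 11.7 and 9.996 FPKM in their healthy mucosa. As for CD3E, the lesion of Bart fell within the healthy range for both, and neither passed with tissue only (adjusted p = 0.21 for LCK and 0.16 for ZAP70) while both did with the block (adjusted p = 0.022 for each, from limma). ZAP70 was named after its values were seen.
Among 24 adaptors and exchange factors, 14 had a symbol, 7 rose and 2 fell. The exchange factors of the VAV family, which bind LCP2, were split: VAV1, the member of blood cells, rose by 1.92 (adjusted p = 0.027 from limma) and VAV2, named after its values were seen, by 1.05 (adjusted p = 0.042), whereas VAV3 fell (log2 difference -1.41, adjusted p = 0.023). VAV3 measured 0.959, 0.427 and 0.622 FPKM in the lesions of Bart, Jerome and Sadie, all below the floor, against 2.77, 2.85 and 2.35 FPKM in their healthy mucosa. NCK2, an adaptor found in most tissues, fell (log2 difference -1.48, adjusted p = 0.026). APBB1IP (RIAM), which links receptors to integrins, rose by 1.93 (adjusted p = 0.023), and PAG1 also rose. LAT, the membrane scaffold that recruits LCP2, had a log2 difference of 1.34 (adjusted p = 0.099, and 0.028 with the block) and was named after its values were seen.
Among 40 genes of the Ras, protein kinase C, lipid and NF-kappa B branches, 15 had a symbol, 6 rose and 1 fell. RASGRP3, the relative of RASGRP1 in B cells, rose by 2.07 (adjusted p = 0.024 from limma), and PIK3CG, a lipid kinase of leukocytes, by 2.77 (adjusted p = 0.025). PIK3AP1, PLCG2 and NFKBIE also rose. MAPK13, a p38 kinase, fell (log2 difference -2.22, adjusted p = 0.032). Among 21 genes of the calcium and NFAT branch, 2 had a symbol and limma called neither (1 had an unadjusted p under 0.05): NFATC4 had a log2 difference of 1.05 (adjusted p = 0.11) and NFATC2 one of 1.10 (adjusted p = 0.32), and both passed with the block (adjusted p = 0.044 and 0.048).
Of 15 T cell markers, 10 had a symbol, 1 rose with tissue only (CD28) and 9 rose with the block. Their summed level was 119.5, 259 and 231 FPKM in the lesions of Bart, Jerome and Sadie, against 33.5, 95.3 and 83.6 FPKM in their healthy mucosa, lowest in Bart in both tissues like CD3. Of these 10, 8 are also in the pathway lists. Of the 12 myeloid markers with a symbol, 8 rose with tissue only and 11 with the block. Whether the 2 lists differ was not tested. Of 13 B cell markers, 10 had a symbol and 5 rose with tissue only, or 8 with the block. CD79A, a signaling chain of the B cell receptor, measured 151, 447 and 1114 FPKM in the lesions of Bart, Jerome and Sadie, against 11.05, 86.1 and 29.6 FPKM in their healthy mucosa, with the order of cats that CD3G had in both tissues. CD79A was not among the 5 (adjusted p = 0.056 from limma) and passed with the block (adjusted p = 0.026). BLNK, an adaptor of B cell receptor signaling in the same list, was lower in the lesion of every cat, with a log2 difference of -1.24 that did not pass (adjusted p = 0.19, and 0.069 with the block).

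The genes most like the CD3 chains were sought among the 1929 identifiers with a symbol, by the root mean square distance between log2 profiles over the 6 libraries, each centred on its own mean. The nearest 10 outside the 9 genes were CBFA2T3, PDIA5, PCED1B, TRAF3IP3, LPXN, SASH3, SLAMF1, C1QB, PLXNC1 and CXXC5, at distances of 0.139 to 0.242, beside a median of 1.26 over all identifiers with a symbol. CBFA2T3, a transcriptional co-repressor of blood cells, measured 10.8, 24.3 and 32.7 FPKM in the lesions of Bart, Jerome and Sadie, against 2.48, 7.76 and 6.42 FPKM in their healthy mucosa. C1QB, a complement chain made by macrophages and one of the myeloid markers, was also among the 10. None of the 10 was in the T cell marker list. By the same measure, CD3D lay at 0.102, CD3G at 0.273 and CD3E at 0.295 from the mean profile of the CD3 chains, of which they are part, so that CD3G and CD3E were farther from it than the 10 genes named. RASGRP1 lay at 0.332, PRKCQ at 0.384, CD4 at 0.464, LCP2 at 0.712, NFATC1 at 0.852 and TEC at 1.83. LCP2, NFATC1 and TEC, the genes furthest from the CD3 profile, were also the ones called in the most fits. All identifiers compared here share the same 6 libraries from 3 cats.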

How the data were processed

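Libraries of polyadenylated RNA, strand-specific per the labels, were made from 3 FCGS lesions and 3 healthy biopsies. The authors deposited FPKM from Cuffnorm, 1 table per library. The submitters' processing notes also name bcl2fastq, HISAT and Cufflinks. Their versions and the genome build were not given in the sources used here. Symbols came from 1981 rows of the supplementary gene table; each matched 1 identifier to 5 significant digits, and none with the tissues swapped. Rows with fewer than 3 values above the floor (47) or with symbols turned into dates (5) were left out.

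Tests used limma 3.58.1 (R 4.3.3), two-sided, with a mean-variance trend, and were run on simulated data. Of simulated log2 changes of 2, 56.0% were called with tissue only and 1.0% with the block when 200 identifiers changed. With 2000 changed, 76.3% and 68.8% were called. The simulated data held no difference between cats, so they do not check how the block handles paired biopsies. Tables and plots were made with pandas 2.3.3, numpy 2.4.6 and matplotlib 3.10.9 under Python 3.11.15. Pairs come from the subject names in the labels. Across identifiers, the lesion's and the healthy biopsy's deviations from their tissue mean correlated within cats at 0.49 (Bart), 0.20 (Jerome) and 0.41 (Sadie). Between cats, the lesion of Jerome correlated at 0.27 with healthy mucosa of Sadie, more than with its own. The remaining pairs of different cats lay at -0.44 to 0.06.

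The genes and lists were chosen with earlier results of these data known. Named were the 9 genes, up to 5 genes per pathway list by smallest p and those that fell, up to 3 per marker list by mean level, and the 10 nearest to the CD3 profile. Exceptions are stated. Alternatives varied the pseudocount, filter, scaling, trend, pairing and libraries; the block combined with 0.1 FPKM added was chosen after seeing the data.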

Additional observations from a re-analysis of the deposited data

How the results depend on the processing

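No difference of the 9 genes changed its direction in any of 17 other fits. The number of the 9 called higher, 3 with tissue only, was 8 with the cat as a block, paired by animal, also with 0.1 FPKM added, 5 after rescaling to TPM, and 1 without a filter on low values, a fit over 18541 identifiers in which limma called none of the 9 lower (6 higher and 1 lower at an unadjusted p under 0.05). Of the pathway genes, 20 were called higher and 3 lower with tissue only, 38 and 5 with the block, 5 and 1 without a filter, and 36 higher with the block and 0.1 FPKM added. When a library or a cat was left out, 0 to 7 of the 9 were called higher and 0 to 1 lower, and 0 to 23 pathway genes higher and 0 to 4 lower; counts of 0 called higher came with 5 to 7 of the 9 at an unadjusted p under 0.05 and a positive difference. With 3 cats and read numbers not in the files, counting error could not be set beside the low levels of CD4, PRKCQ and TEC.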
